A study of Mus musculus with 12 samples.

Results

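The genes described here encode the ephrins and their Eph receptors, the netrins with their receptors DCC and UNC5, and the Slits with their Robo receptors. They were chosen by name: every gene whose symbol starts with Epha, Ephb, Efna or Efnb, is Unc5a to Unc5d, Slit or Robo followed by a digit, Ntn followed by a digit or a g, or is Dcc. That gave 40 of the 23079 genes listed, 17 encoding ligands and 23 encoding receptors. RNA came from dopaminergic neurons of the substantia nigra pars compacta (SNpc), set against those of the ventral tegmental area (VTA), all of C57BL/6 mice. The labels call the samples TRAP samples, read here as translating ribosome affinity purification, which enriches RNA on the ribosomes of a chosen cell type. No source used here gives the transgene and its promoter, the age of the mice or whether animals were pooled. Neurons of the SNpc are lost earlier in Parkinson disease than those of the VTA, and the pathways they use to connect are among the features in which both populations can be compared.

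Each region had 6 columns of read counts, of which 1 pair per region was identical in every gene and was counted as 1 library, leaving 5 SNpc libraries (1, 2, 3, 4 and 6) and 5 VTA libraries (1, 2, 4, 5 and 6). Values in each library are given below in that order, as CPM, the count of a gene relative to the library size, which was scaled by trimmed mean of M values. Total counts were 62951005 to 65959443 in SNpc and 62356964 to 81393907 in VTA, and 15685 genes had enough counts to be tested. The transcripts of dopaminergic neurons were abundant: Th, tyrosine hydroxylase, ranged over 2637 to 4138 CPM in SNpc and 1693 to 2643 CPM in VTA, and Slc6a3, the dopamine transporter, over 4229.9 to 5938 CPM in SNpc and 1674 to 3116 CPM in VTA. Regional markers matched the labels in every library, with 79.6 to 111 CPM in SNpc and 45.5 to 57.3 CPM in VTA for Sox6, and 4.1005 to 5.05 CPM in SNpc and 13.5 to 21.9 CPM in VTA for Otx2. Library 4 of SNpc stood apart, with the highest summed oligodendrocyte markers of all libraries (1536 CPM, against 303 to 567 CPM in the other SNpc libraries and 775 to 963 CPM in VTA). VTA library 1 had the highest summed endothelial and mural markers.

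Guidance cues steer growing axons and later act at synapses. Ephrins are ligands held in the membrane of the neighbouring cell: ephrin-As sit on a lipid anchor and bind mostly EphA receptors, ephrin-Bs cross the membrane and bind mostly EphB receptors, and EphA4 binds ligands of both classes. Eph receptors are tyrosine kinases, and because ephrins also signal back into the cell that carries them, contact usually leads to repulsion or to adhesion in both partners. Netrins are secreted relatives of laminin that attract axons through DCC and repel them through UNC5 receptors, while Slits are secreted cues that repel axons through Robo receptors. In the developing midbrain these systems are known to shape the path of dopaminergic axons to the forebrain, where SNpc axons end mainly in the dorsal striatum and VTA axons mainly in the ventral striatum and cortex.

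RefSeq promoter windows, 250 bases before to 50 bases after the annotated start, were found for 35 of the 40 genes, with 40 windows in all on build GRCm38.p6. The windows of a pair of receptors higher in SNpc (Epha5 and Epha4) and of a receptor and a ligand higher in VTA (Epha7 and Efna5) are shown. In each direction these are the 2 ephrin or Eph genes of highest mean CPM among those called without overlap that had a window. Capitals mark the GC box, GGGCGG on the strand shown or CCGCCC for the other strand.
Epha5: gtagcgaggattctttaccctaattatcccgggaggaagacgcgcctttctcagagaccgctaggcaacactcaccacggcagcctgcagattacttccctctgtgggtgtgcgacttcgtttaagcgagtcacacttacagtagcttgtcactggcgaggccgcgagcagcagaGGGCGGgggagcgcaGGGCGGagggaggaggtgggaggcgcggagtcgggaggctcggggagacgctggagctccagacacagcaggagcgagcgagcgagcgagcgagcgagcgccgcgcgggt
Epha4: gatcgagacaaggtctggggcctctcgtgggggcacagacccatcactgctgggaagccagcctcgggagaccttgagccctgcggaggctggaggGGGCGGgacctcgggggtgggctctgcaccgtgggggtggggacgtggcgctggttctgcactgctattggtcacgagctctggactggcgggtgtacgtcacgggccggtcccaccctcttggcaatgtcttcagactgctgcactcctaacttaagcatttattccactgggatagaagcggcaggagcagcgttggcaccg
Epha7: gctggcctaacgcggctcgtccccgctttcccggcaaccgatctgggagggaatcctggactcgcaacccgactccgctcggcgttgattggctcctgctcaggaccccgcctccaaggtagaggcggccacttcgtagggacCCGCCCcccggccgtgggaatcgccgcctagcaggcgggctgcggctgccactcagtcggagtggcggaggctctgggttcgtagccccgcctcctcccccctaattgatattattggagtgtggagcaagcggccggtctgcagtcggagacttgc
Efna5: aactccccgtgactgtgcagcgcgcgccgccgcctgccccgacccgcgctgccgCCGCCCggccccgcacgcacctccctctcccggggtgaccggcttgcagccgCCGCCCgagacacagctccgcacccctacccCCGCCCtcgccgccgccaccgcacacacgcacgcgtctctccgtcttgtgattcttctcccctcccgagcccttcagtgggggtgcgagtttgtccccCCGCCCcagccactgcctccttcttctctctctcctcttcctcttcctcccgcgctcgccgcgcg
The Epha5 window lies at chr5:84417333-84417632 on the minus strand and holds 2 GC boxes. The Epha4 window, at chr1:77515039-77515338 on the minus strand, holds 1, and the Epha7 window, at chr4:28812881-28813180 on the plus strand, holds 1. The Efna5 window, at chr17:62881268-62881567 on the minus strand, holds 4. A GC box was found in 27 of the 40 guidance gene windows (67.5%), against 35.7% of all 32851 windows of that length. It was present for 2 of 3 matched genes higher in SNpc, 12 of 13 higher in VTA and 8 of 14 that were not called. TAATCC, the core bound by bicoid-type homeodomain proteins such as Otx2 (GGATTA on the other strand), was in 2 of 40 windows, those of Robo3 and Robo4, against 7.06% of all windows. AACAAT, a Sox-type core (ATTGTT on the other strand), was in 1 of 40, that of Ephb1, against 10.7% of all windows. None of the 3 motifs lies within another, and a match is a run of letters, not a measured binding site.

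More guidance genes were called higher in VTA than in SNpc. Of the 40, 35 had enough counts to be tested, and 5 (Efna4, Epha2, Ntn5, Robo3 and Robo4) had not, with at most 1.59 CPM in any library, the Robo4 value of VTA library 1. Of the 35 tested, 4 were higher in SNpc (11.4%, against 17.8% of all genes tested) and 15 in VTA (42.9%, against 20.4% of all genes tested). A gene was called when its p-value from edgeR's quasi-likelihood F test, adjusted by Benjamini and Hochberg's method over all 15685 genes, was under 0.05. Epha4, Epha5, Robo2 and Ntn1 were those higher in SNpc. Those higher in VTA were the ephrins Efna2, Efna3, Efna5, Efnb2 and Efnb3, the Eph receptors Epha1, Epha6, Epha7, Epha8, Ephb1 and Ephb6, the netrin receptors Unc5a, Unc5b and Unc5d, and Slit2. All libraries of one region lay above all libraries of the other for 3 genes higher in SNpc, where 12% of all genes tested were separated in that direction, and for 12 higher in VTA, where 14.6% of all genes tested were. The median log2 fold change of the 35 genes, SNpc minus VTA, was -0.47, against -0.04 over all genes tested. In bulk RNA of this kind, fewer cells of a type and less RNA per cell cannot be told apart.

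**Figure D1:**
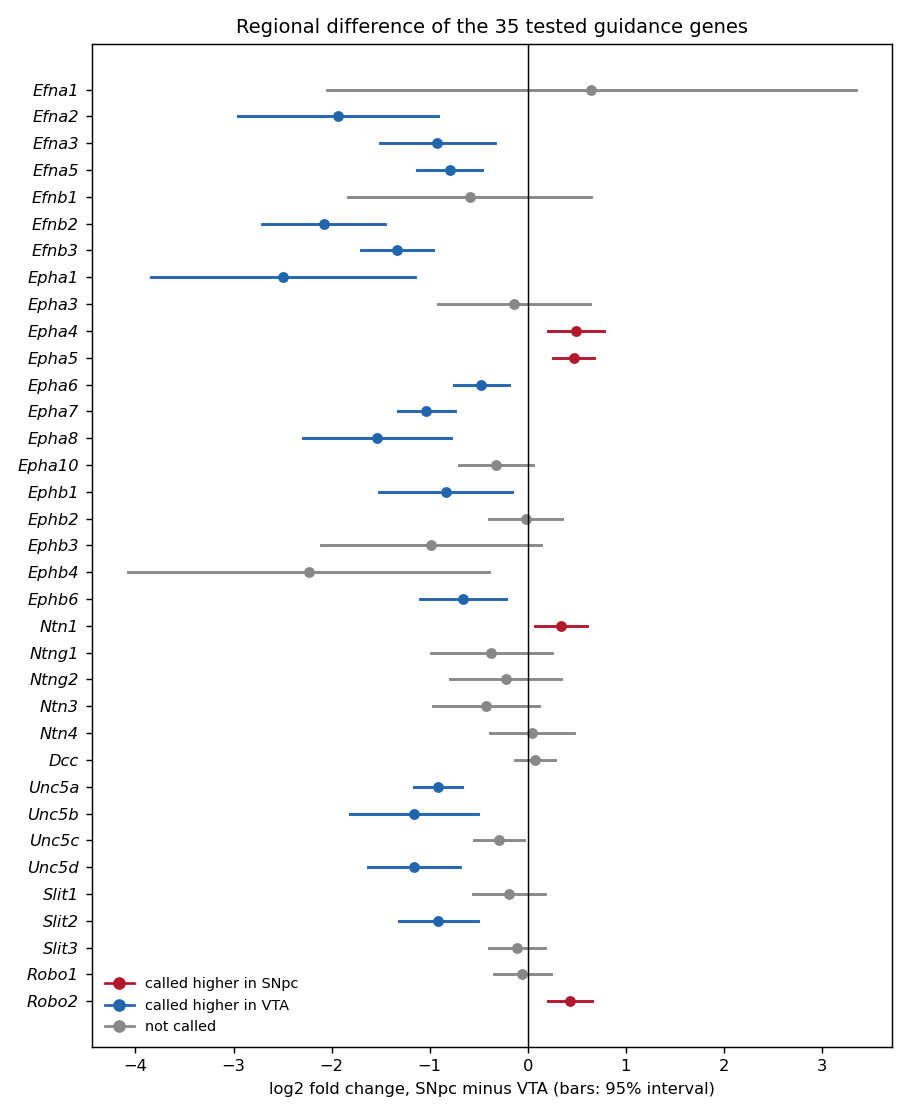
Log2 fold change (SNpc minus VTA) of the 35 tested guidance genes with its 95% interval, by family from top to bottom; points right of 0 are higher in SNpc. The 4 genes called higher in SNpc lie between 0.33 and 0.50, whereas the 15 called higher in VTA reach -2.49.

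Ephrin-A ligands were lower in SNpc wherever they were called, which held for 3 of 4 tested. Efna5 (chr17:62604184-62881317, minus strand), an ephrin-A that repels EphA-bearing axons in topographic maps, had 22.7, 32.2, 27.7, 29.5 and 26.6 CPM in SNpc, against 42.4, 57.9, 50.96, 32.7 and 57.2 CPM in VTA. No SNpc library reached the lowest VTA library, and the level was 1.74-fold lower in SNpc (log2 fold change -0.80 ± 0.16 SE, edgeR adjusted p = 0.000827). Efna2 (chr10:80179482-80190010, plus strand), its close relative, had 3.02, 9.78, 8.62, 6.01 and 7.56 CPM in SNpc, against 17.2, 12.2, 60.1, 14.6 and 29.4 CPM in VTA. The VTA libraries spread widely, with library 4 far above the others, yet all lay above SNpc, which was 3.82-fold lower (log2 fold change -1.93 ± 0.46 SE, edgeR adjusted p = 0.00681). Efna3 (chr3:89313899-89322965, minus strand), another ligand of EphA receptors, had 2.35, 4.34, 3.32, 4.22 and 4.902 CPM in SNpc, against 7.53, 10.4, 6.17, 5.8002 and 6.41 CPM in VTA. Here too the groups were separate, at a 1.896-fold lower level in SNpc (log2 fold change -0.92 ± 0.28 SE, edgeR adjusted p = 0.0147). Without VTA library 2, its highest, the edgeR adjusted p was 0.0596. Efna1 had at most 0.908 CPM in any library, with zero counts in 2 SNpc libraries and 1 VTA library, and did not pass the test. Efna4 had no count in any SNpc library and at most 0.271 CPM in VTA. Per kb of transcript, Efna5 averaged 6.88 ± 0.877 in SNpc and 11.96 ± 2.66 in VTA and Efna2 3.28 ± 1.23 in SNpc and 12.5 ± 9.296 in VTA (CPM per kb, SD, n = 5 each). Efna5 was thus above Efna2 in SNpc, and the pair stood at about the same level in VTA.

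Of the 3 ephrin-B ligands, Efnb2 and Efnb3 were lower in SNpc and Efnb1 was not called. Efnb2 (chr8:8617434-8661242, minus strand), a transmembrane ligand of EphB receptors and of EphA4, had 3.26, 3.03, 4.43, 2.89 and 6.52 CPM in SNpc, against 24.2, 9.67, 23.4, 12.7 and 15.3 CPM in VTA. Its highest SNpc library, 6, stayed under its lowest VTA library, and the level was 4.24-fold lower in SNpc (log2 fold change -2.08 ± 0.30 SE, edgeR adjusted p = 4.44e-05). Efnb3 (chr11:69554092-69560205, minus strand), the midline ephrin that EphA4-bearing axons avoid in the mouse spinal cord, had 13.5, 16.8, 15.9, 27.4 and 17.9 CPM in SNpc, against 54.9, 43.5, 47.2, 38.02 and 47.3 CPM in VTA. Every VTA library was above every SNpc library, the nearest being SNpc library 4, which also had the highest glial markers. The level was 2.52-fold lower in SNpc (log2 fold change -1.33 ± 0.18 SE, edgeR adjusted p = 2.06e-05). Efnb1 was scarce, at 0.487 to 2.74 CPM in SNpc and 0.829 to 3.63 CPM in VTA, with groups that overlapped and no call (log2 fold change -0.59 ± 0.59 SE, edgeR adjusted p = 0.457). Per kb, Efnb3 was the most abundant ephrin of VTA, at 14.5 ± 1.93 CPM per kb, against 5.75 ± 1.68 CPM per kb in SNpc. That VTA level did not stand clear of Efna2 and Efna5 beyond the spread of the libraries.

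EphA receptors moved in both directions, and the pair most abundant per kb of transcript in SNpc, Epha5 and Epha4, was higher there. Epha5 (chr5:84054761-84417382, minus strand), a receptor for ephrin-As in the nervous system, had 121, 118, 127, 103 and 128 CPM in SNpc, against 87.7, 73.1, 93.5, 85.3 and 92.6 CPM in VTA. All SNpc libraries were above all VTA libraries, by 1.38-fold on average (log2 fold change 0.47 ± 0.10 SE, edgeR adjusted p = 0.00142). Epha4 (chr1:77367185-77515088, minus strand), the receptor that accepts both ephrin classes, had 102, 97.5, 85.5, 82.7 and 119 CPM in SNpc, against 51.04, 81.7, 64.2, 80.8 and 67.3 CPM in VTA. The lowest SNpc library, 4, stood just above the highest VTA library, 2, and the level was 1.41-fold higher in SNpc (log2 fold change 0.50 ± 0.14 SE, edgeR adjusted p = 0.00829). Epha7 (chr4:28813131-28967499, plus strand), an ephrin-A receptor that also occurs as a truncated form without its kinase, had 22.5, 27.8, 30.1, 30.1 and 25.8 CPM in SNpc, against 46.7, 64.7, 47.7, 52.8 and 67.1 CPM in VTA. It was 2.05-fold lower in SNpc with no overlap (log2 fold change -1.03 ± 0.14 SE, edgeR adjusted p = 2.36e-05). Epha6 (chr16:59653483-60605531, minus strand) had 29.9, 31.2, 28.8, 38.4 and 29.3 CPM in SNpc, against 41.7, 53.2, 46.96, 39.7 and 37.4 CPM in VTA. SNpc library 4 was above VTA library 6, so the groups overlapped, and the level was 1.39-fold lower in SNpc (log2 fold change -0.47 ± 0.13 SE, edgeR adjusted p = 0.00919). Epha8 (chr4:136929419-136956816, minus strand), known in the mouse for guiding axons of the superior colliculus, had 1.11, 1.56, 2.36, 2.65 and 2.43 CPM in SNpc, against 4.27, 5.02, 4.17, 7.304 and 8.64 CPM in VTA. Low as it was, its groups were separate, with SNpc 2.904-fold lower (log2 fold change -1.54 ± 0.36 SE, edgeR adjusted p = 0.00272). Epha1 lay between 0.191 and 1.02 CPM in SNpc and between 0.9595 and 3.84 CPM in VTA, and was called lower in SNpc although SNpc library 4 and VTA library 5 crossed (log2 fold change -2.49 ± 0.64 SE, edgeR adjusted p = 0.00536). Epha10 (chr4:124880899-124917800, plus strand), a receptor whose kinase is inactive, had 29.7, 18.04, 20.3, 20.2 and 27.9 CPM in SNpc, against 21.4, 26.7, 34.9, 26.2 and 36.1 CPM in VTA. The regions overlapped and no difference passed the test (95% interval of the log2 fold change -0.70 to 0.06). Epha3 ran over 2.32 to 6.504 CPM in SNpc and 2.57 to 5.36 CPM in VTA, also uncalled.

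Set side by side per kb of transcript, Epha5 averaged 16.3 ± 1.36 in SNpc and 11.8 ± 1.12 in VTA, Epha4 15.4 ± 2.28 in SNpc and 10.9 ± 2.01 in VTA, Epha6 8.02 ± 1.01 in SNpc and 11.1 ± 1.61 in VTA and Epha7 4.04 ± 0.476 in SNpc and 8.27 ± 1.41 in VTA (CPM per kb, SD, n = 5 each). In SNpc, Epha5 and Epha4 led without a gap beyond their spread between them, followed by Epha6 and then Epha10 and Epha7. In VTA, Epha5, Epha6 and Epha4 stood at nearly the same level, with Epha7 next. The 9 EphA genes together summed to 49.9 ± 3.22 CPM per kb in SNpc and 51.2 ± 3.66 CPM per kb in VTA, ranges of 47.2 to 55.2 in SNpc and 45.3 to 54.3 in VTA that overlap.

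EphB receptors were weaker signals and lay lower in SNpc where called. Ephb6 (chr6:41605482-41620509, plus strand), a member with an inactive kinase, had 8.56, 7.07, 7.04, 7.85 and 5.14 CPM in SNpc, against 12.2, 10.998, 10.3, 8.84 and 14.1 CPM in VTA. The highest SNpc library stayed just below the lowest VTA library, and the level was 1.58-fold lower in SNpc (log2 fold change -0.66 ± 0.21 SE, edgeR adjusted p = 0.01903). That call ended without VTA library 6 (edgeR adjusted p = 0.0579). Ephb1, a receptor for ephrin-Bs that turns retinal axons at the optic chiasm of the mouse, ran over 4.29 to 18.4 CPM in SNpc and 13.02 to 20.1 CPM in VTA. SNpc library 4 held the top SNpc value, which lay within the VTA range, so the groups overlapped. The call was marginal (log2 fold change -0.84 ± 0.32 SE, edgeR adjusted p = 0.0491). Without that library the log2 fold change was -1.22, adjusted p = 0.000944, while it failed the test without any single one of the other 9. Ephb2, which clusters synaptic NMDA receptors, was level between the regions, at 16.3 ± 2.58 CPM in SNpc and 16.5 ± 3.27 CPM in VTA (SD, n = 5 each, 95% interval of the log2 fold change -0.39 to 0.35). Ephb3 ran over 0.655 to 2.22 CPM in SNpc and 0.552 to 4.399 CPM in VTA and Ephb4, a receptor best known from veins, over 0.0652 to 1.43 CPM in SNpc and 0.807 to 4.32 CPM in VTA. Neither passed (log2 fold change -0.98 ± 0.53 SE, edgeR adjusted p = 0.158 for Ephb3 and log2 fold change -2.23 ± 0.87 SE, edgeR adjusted p = 0.0517 for Ephb4). Ephb3 did without VTA library 4 (log2 fold change -1.25, adjusted p = 0.0415) and Ephb4 without SNpc library 1 (-3.61, adjusted p = 0.00434) or without VTA library 6 (-2.43, adjusted p = 0.0499).

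**Figure D2:**
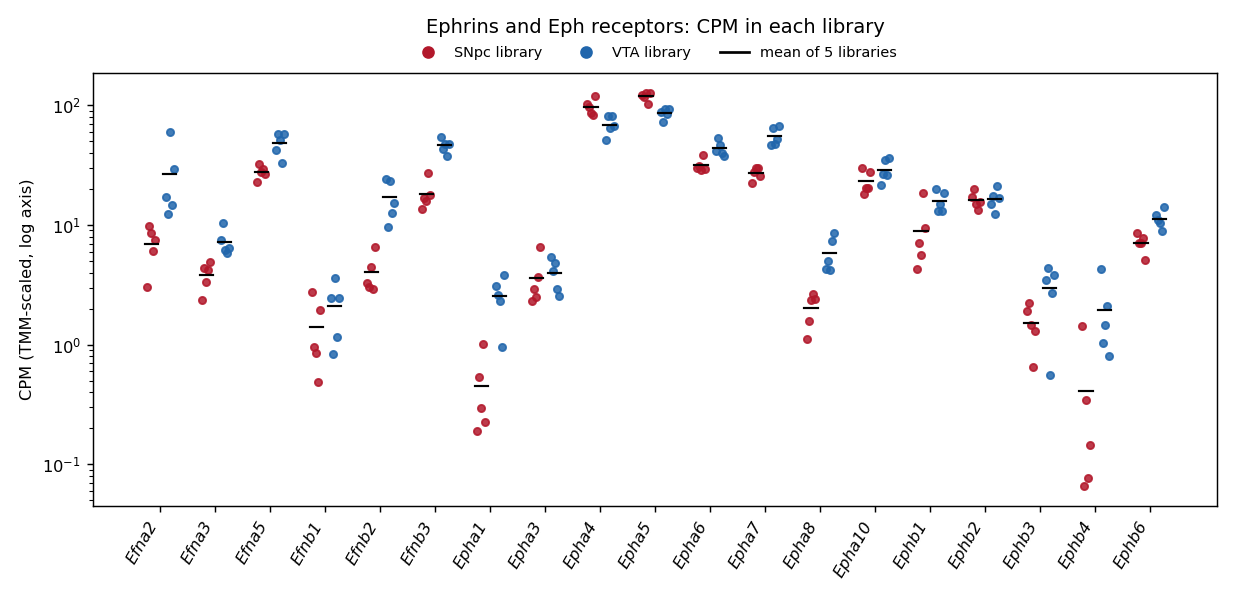
CPM (log axis) of the tested ephrins and Eph receptors in each of 5 SNpc libraries (left of each gene) and 5 VTA libraries (right), with the mean as a bar; Efna1, at 0 in some libraries, is not drawn. Only Epha4 and Epha5 have all SNpc points above all VTA points, while Efna2, Efna3, Efna5, Efnb2, Efnb3, Epha7, Epha8 and Ephb6 have all of them below.

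Of 32 genes that act next to Eph receptors and ephrins, all tested, 3 lay higher in SNpc (9.38%, against 17.8% of all genes tested) and 8 in VTA (25%, against 20.4% of all genes tested), the second share being near that of all genes. Their median log2 fold change was -0.17. The genes higher in SNpc were Sdcbp, Chn1 and Pick1, the last of them named because it completes that count. Sdcbp, syntenin, a PDZ protein that binds the tails of ephrin-Bs, averaged 266 ± 16.2 CPM in SNpc and 187 ± 17.5 CPM in VTA (SD, n = 5 each, log2 fold change 0.51 ± 0.09 SE, edgeR adjusted p = 0.000303). Chn1, α-chimaerin, a Rac inhibitor that acts below EphA4, averaged 315 ± 15.8 CPM in SNpc and 248 ± 26.6 CPM in VTA (SD, n = 5 each, log2 fold change 0.35 ± 0.09 SE, edgeR adjusted p = 0.00606). Abl2 and Abl1, non-receptor kinases that signal with EphB receptors, were lower in SNpc. Abl2 averaged 56.2 ± 8.601 CPM in SNpc and 113 ± 13.4 CPM in VTA (SD, n = 5 each, log2 fold change -1.001 ± 0.12 SE, edgeR adjusted p = 8.36e-06). Abl1 averaged 33.4 ± 5.799 CPM in SNpc and 60.5 ± 7.57 CPM in VTA (SD, n = 5 each, log2 fold change -0.86 ± 0.14 SE, edgeR adjusted p = 0.000128). The regions did not overlap for Sdcbp, Chn1, Abl1 or Abl2. Without SNpc library 4, 7 of the 32 were higher in SNpc and 6 in VTA, beside 3317 and 3193 of all 15904 genes then tested. With a trend on transcript length and GC content removed, 9 were higher in SNpc (14.9% of all genes tested) and 4 in VTA (16.3% of all genes tested).

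Among the netrins, only Ntn1 was called. Ntn1 (chr11:68209364-68400823, minus strand), the secreted netrin that draws axons to the floor plate, had 139.7, 132, 118, 89.01 and 145 CPM in SNpc, against 105, 81.3, 107, 96.5 and 105 CPM in VTA. It was 1.26-fold higher in SNpc (log2 fold change 0.33 ± 0.13 SE, edgeR adjusted p = 0.0448), but SNpc library 4 fell within the VTA values. The call ended under 8 of the 10 settings that leave out 1 library and held only without SNpc library 4 (log2 fold change 0.49, adjusted p = 0.00135) or VTA library 4 (0.37, adjusted p = 0.0498). Ntng1 (chr3:109780040-110144011, minus strand), netrin-G1, a membrane-anchored relative that binds NGL1 on dendrites rather than DCC, had 78.8, 93.99, 143, 139.7 and 112 CPM in SNpc, against 74.7, 225, 132, 114 and 188 CPM in VTA. Its libraries spread widely within VTA and the regions overlapped, with no call (95% interval of the log2 fold change -0.99 to 0.25). Per kb of transcript, Ntng1 averaged 20.3 ± 4.996 in SNpc and 26.2 ± 10.7 in VTA and Ntn1 21.7 ± 3.89 in SNpc and 17.2 ± 1.84 in VTA (CPM per kb, SD, n = 5 each), the highest levels of any ligand in both regions. Ntn4, a netrin of basement membranes, averaged 15.97 ± 4.79 CPM in SNpc and 15.5 ± 0.934 CPM in VTA (SD, n = 5 each), and its SNpc libraries were more spread than its VTA libraries. Ntn3 ran over 5.24 to 7.01 CPM in SNpc and 4.697 to 10.7 CPM in VTA, and Ntng2, netrin-G2, over 3.74 to 5.69 CPM in SNpc and 3.72 to 7.1005 CPM in VTA, neither called. Ntn5 stayed at or under 0.286 CPM.

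Dcc, the attractive receptor, showed no call, and 3 of the 4 repulsive UNC5 receptors were lower in SNpc. Dcc, on chromosome 18, had 98.1, 101, 84.4, 88.8 and 111 CPM in SNpc, against 98.5, 93.8, 92.1, 86.2 and 89.5 CPM in VTA. The regions overlapped throughout, and the 95% interval of the log2 fold change was -0.13 to 0.28. Unc5a (chr13:54949411-55006018, plus strand) had 28.2, 30.6, 34.6, 27.8 and 34.7 CPM in SNpc, against 60.7, 52.5, 60.7, 66.1 and 54.5 CPM in VTA. Separate in every library and tight within regions, it was 1.89-fold lower in SNpc (log2 fold change -0.92 ± 0.12 SE, edgeR adjusted p = 1.54e-05). Unc5d (chr8:28646717-29219636, minus strand), which also binds FLRT2 in migrating cortical neurons of the mouse, had 13.2, 14.5, 6.73, 13.4 and 9.98 CPM in SNpc, against 24.1, 36.2, 23.5, 27.998 and 17.3 CPM in VTA. The SNpc libraries all lay below the VTA libraries, at a 2.23-fold lower level (log2 fold change -1.16 ± 0.22 SE, edgeR adjusted p = 0.000679). Unc5b (chr10:60762593-60831581, minus strand), which in mouse vessels restrains endothelial tips, had 3.77, 11.98, 7.34, 18.8 and 11.5 CPM in SNpc, against 22.7, 28.9, 22.1, 21.9 and 23.4 CPM in VTA. SNpc library 4 came nearest to the VTA values without reaching them, and the level was 2.23-fold lower in SNpc (log2 fold change -1.16 ± 0.31 SE, edgeR adjusted p = 0.00763). Unc5c (chr3:141465216-141834924, plus strand) had 63.02, 55.9, 67.7, 73.1 and 88.9 CPM in SNpc, against 92.96, 90.4, 78.6, 77.6 and 86.8 CPM in VTA. SNpc library 6 lay among the VTA libraries and the difference did not pass (log2 fold change -0.29 ± 0.12 SE, edgeR adjusted p = 0.0669), while without that library it did (log2 fold change -0.39, adjusted p = 0.0121). Per kb, Unc5a averaged 7.81 ± 0.829 in SNpc and 14.7 ± 1.37 in VTA and Unc5c 7.23 ± 1.29 in SNpc and 8.84 ± 0.716 in VTA (CPM per kb, SD, n = 5 each): they stood level in SNpc, whereas Unc5a was above Unc5c in VTA. Their transcripts have 3995 and 9646 bases, so that comparison is subject to the length trend described below. The 4 UNC5 genes summed to 18.1 ± 2.02 CPM per kb in SNpc and 30.4 ± 1.301 CPM per kb in VTA (SD, n = 5 each), with ranges of 15.7 to 20.9 in SNpc and 28.5 to 31.3 in VTA that did not overlap.

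Partners of netrin, DCC and UNC5 numbered 33, all tested, of which 6 lay higher in SNpc (18.2%) and 17 in VTA (51.5%). Over all genes tested these shares were 17.8% in SNpc, about the same, and 20.4% in VTA. Their median log2 fold change was -0.38. Pitpna, a phosphatidylinositol transfer protein that DCC binds, averaged 873 ± 41.1 CPM in SNpc and 578 ± 53.3 CPM in VTA (SD, n = 5 each, log2 fold change 0.60 ± 0.08 SE, edgeR adjusted p = 3.83e-05). Maged1, which binds the UNC5A tail in cell death, averaged 664 ± 55.5 CPM in SNpc and 456 ± 28.4 CPM in VTA (SD, n = 5 each, log2 fold change 0.54 ± 0.08 SE, edgeR adjusted p = 9.7e-05). Both were separate in every library. Dscam, another netrin receptor, averaged 135 ± 4.82 CPM in SNpc and 228 ± 16.4 CPM in VTA (SD, n = 5 each, log2 fold change -0.76 ± 0.08 SE, edgeR adjusted p = 3.77e-06). Myo10, an unconventional myosin that carries DCC into filopodia, averaged 15.8 ± 1.895 CPM in SNpc and 38.6 ± 6.08 CPM in VTA (SD, n = 5 each, log2 fold change -1.29 ± 0.14 SE, edgeR adjusted p = 4.32e-06), again with no overlap. With the trend on length and GC content removed, Trim9, Trio, Enah, Flrt1 and Cblb were no longer called higher in VTA. In SNpc, Cdc42 lost its call and Neo1 gained one. Log2 fold changes were then -0.23 for Dscam (edgeR adjusted p = 0.0233), -0.78 for Myo10 (0.000221), 0.67 for Pitpna (1.73e-05) and 0.53 for Maged1 (7.51e-05).

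Of the Slit ligands, Slit2 differed between the regions. Slit2 (chr5:47983138-48307733, plus strand), which keeps dopaminergic axons away from the midline in mouse embryos together with Slit1, had 22.3, 19.7, 14.2, 13.4 and 29.7 CPM in SNpc, against 41.9, 36.1, 41.4, 32.8 and 34.7 CPM in VTA. The SNpc values lay below every VTA value, with library 6 the nearest, and the level was 1.88-fold lower in SNpc (log2 fold change -0.91 ± 0.19 SE, edgeR adjusted p = 0.00133). Slit3 (chr11:35121224-35708507, plus strand) had 24.4, 24.4, 29.5, 28.4 and 31.3 CPM in SNpc, against 30.2, 33.3, 23.3, 32.1 and 30.1 CPM in VTA. Both regions covered the same range, and no difference passed (95% interval of the log2 fold change -0.40 to 0.18). Slit1 ran over 13.2 to 24.4 CPM in SNpc and 17.1 to 24.1 CPM in VTA, likewise uncalled (interval -0.56 to 0.17). Per kb of transcript, the order was Slit3, Slit1 and Slit2 in SNpc, with 5.28 ± 0.594, 3.58 ± 0.813 and 1.99 ± 0.668 CPM per kb. In VTA Slit1 and Slit2 were level, at 4.096 ± 0.573 and 3.75 ± 0.407 CPM per kb, below Slit3 at 5.702 ± 0.744 CPM per kb (SD, n = 5 each). The transcripts of Slit1 and Slit2 have 5045 and 9960 bases, so these orders are subject to the length trend described below.

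The Robo receptors parted, with Robo2 higher in SNpc. Robo2 (chr16:73891839-74411825, minus strand), a receptor through which Slits repel axons, had 148, 150.2, 152, 129 and 179 CPM in SNpc, against 97.7, 102, 114, 123 and 126 CPM in VTA. All SNpc libraries exceeded all VTA libraries, by 1.35-fold on average (log2 fold change 0.43 ± 0.11 SE, edgeR adjusted p = 0.00425). Robo1 (chr16:72308306-73046095, plus strand), its neighbour on the same chromosome, had 83.4, 86.2, 91.9, 80.03 and 111 CPM in SNpc, against 81.4, 92.1, 87.5, 77.8 and 131 CPM in VTA. VTA library 6 was the highest of all 10, and no regional difference passed (95% interval of the log2 fold change -0.34 to 0.24). Per kb, Robo2 averaged 17.7 ± 2.101 in SNpc and 13.1 ± 1.46 in VTA and Robo1 11.96 ± 1.61 in SNpc and 12.4 ± 2.82 in VTA (CPM per kb, SD, n = 5 each): Robo2 was above Robo1 in SNpc, and the pair stood level in VTA. Robo3, the commissural form, had at most 3 counts in a library, and Robo4, a receptor of endothelium, reached 1.59 CPM in VTA library 1, the library with the highest summed endothelial and mural markers, and at most 0.0978 CPM in SNpc. The 26 Slit and Robo partners were all tested, and 0 lay higher in SNpc (17.8% of all genes tested) and 13 in VTA (50%, against 20.4% of all genes tested) by edgeR. Their median log2 fold change was -0.36. For the count of 0, 0 of the 26 had an unadjusted p under 0.05 towards SNpc by edgeR, and DESeq2 called 0 as well. With the trend on length and GC content removed, 1 of the 26 was called higher in SNpc (14.9% of all genes tested) and 8 in VTA (16.3% of all genes tested). The 1 was Srgap3, which encodes a GTPase-activating protein of the Slit-Robo family (log2 fold change 0.24, edgeR adjusted p = 0.0214) and completes that count. Before the removal, Srgap3 was among the 13 called higher in VTA (log2 fold change -0.28, edgeR adjusted p = 0.0173), so its call changed direction. Ndst1, an enzyme that sulphates the heparan sulphate needed for Slit binding, averaged 98.5 ± 3.45 CPM in SNpc and 182 ± 14.2 CPM in VTA (SD, n = 5 each, log2 fold change -0.89 ± 0.09 SE, edgeR adjusted p = 1.17e-06). Sos2, an exchange factor of the family that links Robo to Rac in Drosophila, averaged 82.3 ± 12.2 CPM in SNpc and 142 ± 11.1 CPM in VTA (SD, n = 5 each, log2 fold change -0.79 ± 0.11 SE, edgeR adjusted p = 3.64e-05). Neither overlapped between the regions. All 91 effector and partner genes together gave 9 called higher in SNpc (9.89%, against 17.8% of all genes tested) and 38 in VTA (41.8%, against 20.4% of all genes tested), at a median log2 fold change of -0.30. Without SNpc library 4 the counts were 15 and 32, beside 3317 in SNpc and 3193 in VTA of all 15904 genes then tested.

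**Figure D3:**
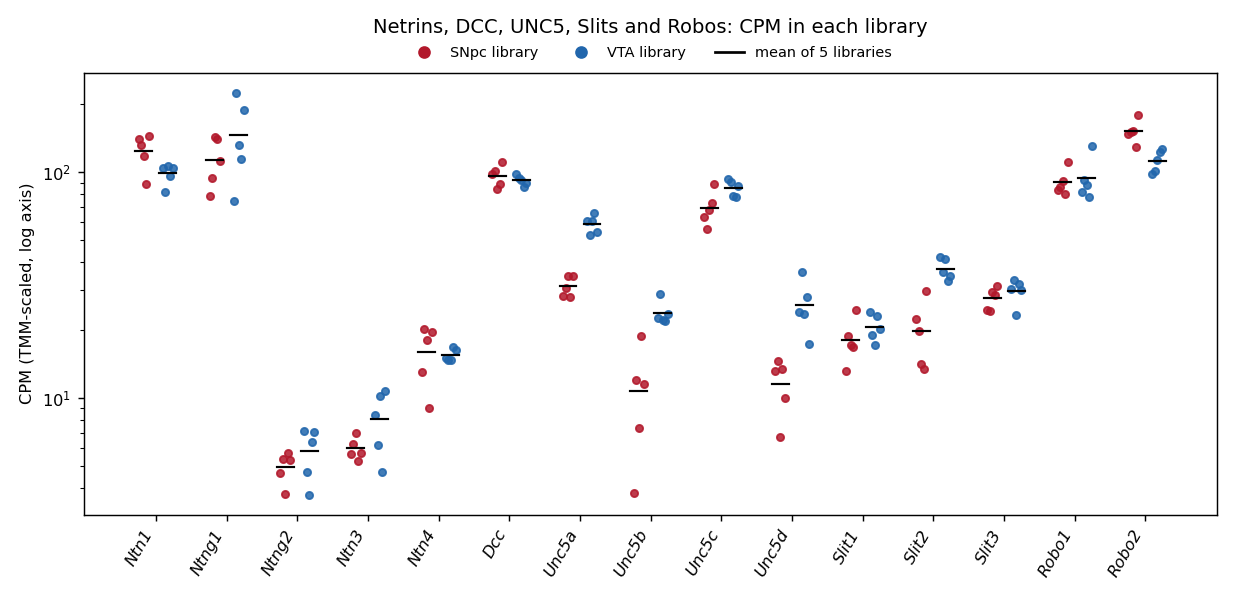
CPM (log axis) of the tested netrins, Dcc, UNC5 receptors, Slits and Robos in each of 5 SNpc libraries (left of each gene) and 5 VTA libraries (right), with the mean as a bar. Unc5a, Unc5b, Unc5d and Slit2 have all SNpc points below all VTA points, and Robo2 has all of them above.

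Summed over members per kb of transcript, the ephrins, the EphB receptors and the UNC5 receptors were lower in every SNpc library than in any VTA library, and the other families overlapped. The 8 ephrins summed to 19.1 ± 2.92 CPM per kb in SNpc and 46.5 ± 11.997 CPM per kb in VTA (SD, n = 5 each), with ranges of 14.2 to 21.8 in SNpc and 32.4 to 64.6 in VTA. The 14 Eph receptors summed to 55.7 ± 2.88 CPM per kb in SNpc and 60.3 ± 3.35 CPM per kb in VTA, with ranges of 52.9 to 60.3 in SNpc and 56.1 to 64.3 in VTA that overlap, and the 5 EphB genes among them to 5.77 ± 0.998 CPM per kb in SNpc and 9.102 ± 1.38 CPM per kb in VTA. Netrins summed to 50.4 ± 4.11 CPM per kb in SNpc and 52.7 ± 9.47 CPM per kb in VTA, Slits to 10.8 ± 1.696 CPM per kb in SNpc and 13.6 ± 1.03 CPM per kb in VTA and Robos to 29.6 ± 3.66 CPM per kb in SNpc and 25.6 ± 3.699 CPM per kb in VTA. For all 40 genes the sum was 193 ± 13.7 CPM per kb in SNpc and 238 ± 18.9 CPM per kb in VTA, and the SNpc range of 179 to 216 overlapped the VTA range of 216 to 259 at its lower end.

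**Figure D4:**
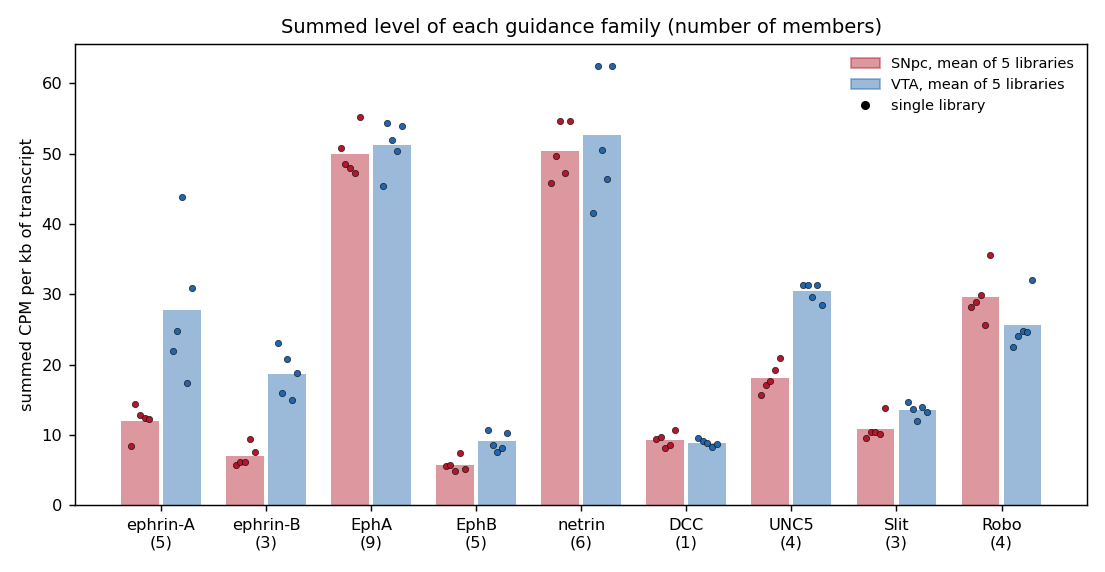
Summed CPM per kb of transcript of each guidance family, SNpc left of VTA; bars are means of 5 libraries, points single libraries and numbers in brackets the members summed. Ephrin-A, ephrin-B and UNC5 points of SNpc lie below all VTA points, whereas EphA, netrin and Robo points of both regions overlap.

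Among marker lists named for other cells, those of oligodendrocyte precursors and glutamatergic neurons had the largest shares called higher in VTA. The oligodendrocyte and GABAergic lists gave 1 call each. Over all genes tested, 17.8% were called higher in SNpc and 20.4% in VTA. The 3 of 12 called higher in VTA for astrocytes and for microglia are near that share. Of 12 astrocyte markers 3 were higher in VTA, with summed levels of 458 to 739 CPM in SNpc and 645 to 810.2 CPM in VTA. Of 12 oligodendrocyte markers 1 was higher in VTA, with sums of 303 to 1536 CPM in SNpc and 775 to 963 CPM in VTA. Of 10 precursor markers 6 were higher in VTA, with sums of 87.7 to 199 CPM in SNpc and 157 to 187 CPM in VTA. Of 12 microglial markers, 1 was higher in SNpc and 3 in VTA, their sums were 46.04 to 71.2 CPM in SNpc and 56.4 to 76.6 CPM in VTA, and C1qa and Trem2 were at 0 in some libraries. Endothelial and mural markers gave 3 of 8 tested higher in VTA, with sums of 3.22 to 17.7 CPM in SNpc and 7.59 to 126 CPM in VTA. Cldn5, Emcn and Kcnj8, among the 4 of 12 that could not be tested, were at 0 in some libraries. Of 5 glutamatergic markers 3 were higher in VTA, with sums of 18.7 to 89.2 CPM in SNpc and 94.9 to 133 CPM in VTA and Slc17a8 at 0 in 1 SNpc library. Most of these sums was Slc17a6, with means of 36.1 CPM in SNpc and 93.4 CPM in VTA. Whether its RNA came from dopaminergic neurons or from other cells was not tested. Among 6 GABAergic markers 1 was higher in SNpc, with sums of 295 to 533 CPM in SNpc and 315 to 408 CPM in VTA. Serotonergic and cholinergic markers, with 1 of 5 tested higher in SNpc, summed to 6.45 to 11.6 CPM in SNpc and 5.03 to 35.8 CPM in VTA. Dopaminergic markers had 9 of 10 higher in SNpc and sums of 10481 to 15252 CPM in SNpc and 5422 to 8834 CPM in VTA. Ephrins, Eph receptors and UNC5 receptors are also made by glia, vessels and other neurons, and how much of each RNA came from which cell was not tested.

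A fit with the mean of the astrocyte, oligodendrocyte, precursor and microglial markers as a covariate called 1 guidance gene in SNpc (9.31% of all genes tested) and 7 in VTA (13.4% of all genes tested). Epha5 was the one in SNpc, at a log2 fold change of 0.36, adjusted p = 0.0477. The ephrins still called lower in SNpc were Efna5 (-0.70, adjusted p = 0.0302), Efnb2 (-2.21, adjusted p = 0.00359) and Efnb3 (-0.94, adjusted p = 0.000824). The receptors were Epha7 (-0.96, adjusted p = 0.00176), Unc5a (-0.99, adjusted p = 0.000462) and Unc5d (-1.09, adjusted p = 0.0169), and Slit2 was the other ligand (-1.24, adjusted p = 0.00261). Calls of Epha4 (0.29, adjusted p = 0.201), Robo2 (0.28, adjusted p = 0.129) and Ntn1 (0.07, adjusted p = 0.791) ended. So did those of Efna2 (-1.83, adjusted p = 0.109), Efna3 (-0.77, adjusted p = 0.16), Epha1 (-1.68, adjusted p = 0.145) and Epha8 (-1.35, adjusted p = 0.0503), with log2 fold changes that stayed at -0.77 or below. Calls also ended for Epha6 (-0.32, adjusted p = 0.174), Ephb1 (-0.19, adjusted p = 0.654), Ephb6 (-0.58, adjusted p = 0.153) and Unc5b (-0.64, adjusted p = 0.148). The SE of Efna2 was 0.75 in this fit, against 0.46 without the covariate, and a p above the threshold does not show that the regions were alike. Since that covariate differs between the regions, its estimate and the regional one share information.

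Transcript length moved with the region, and these genes are long. Over 14797 tested genes, longer transcripts had lower SNpc values (Spearman's rho of length with the difference -0.38, a description over genes that share the same 10 libraries). Split into 5 equal bins by length, the shortest genes differed by a median of 0.34 on the log2 scale (SNpc minus VTA) and the longest by one of -0.47. Log2 CPM per doubling of length changed by -0.18 to -0.038 in SNpc libraries and by 0.069 to 0.23 in VTA libraries. Division by kb does not remove that difference, so orders of genes per kb that differ between the regions are subject to it. The tested guidance genes had a median transcript of 4793 bases, against 3083 bases over all tested genes with a length. The 4 called higher in SNpc had a median of 6828 bases and the 15 called higher in VTA one of 4032 bases. With a trend on length and GC content removed in each library, 7 guidance genes were higher in SNpc (14.9% of all genes tested) and 11 in VTA (16.3% of all genes tested). Those in SNpc were Epha4 (0.77, adjusted p = 0.000193), Epha5 (0.77, adjusted p = 3.99e-05), Ntn1 (0.71, adjusted p = 0.0003) and Robo2 (0.79, adjusted p = 4.16e-05). They were joined by Dcc (0.53, adjusted p = 0.00033), Ephb2 (0.60, adjusted p = 0.0151) and Robo1 (0.38, adjusted p = 0.033). The last 3 have transcripts of 10323, 10902 and 7563 bases. Ephb1, Ephb6, Slit2 (-0.46, adjusted p = 0.0671) and Unc5b (-0.75, adjusted p = 0.0785) were no longer called, and the other 11 genes lower in SNpc still were. The median of the 35 was then -0.38, against -0.04 over all genes tested.

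**Figure D5:**
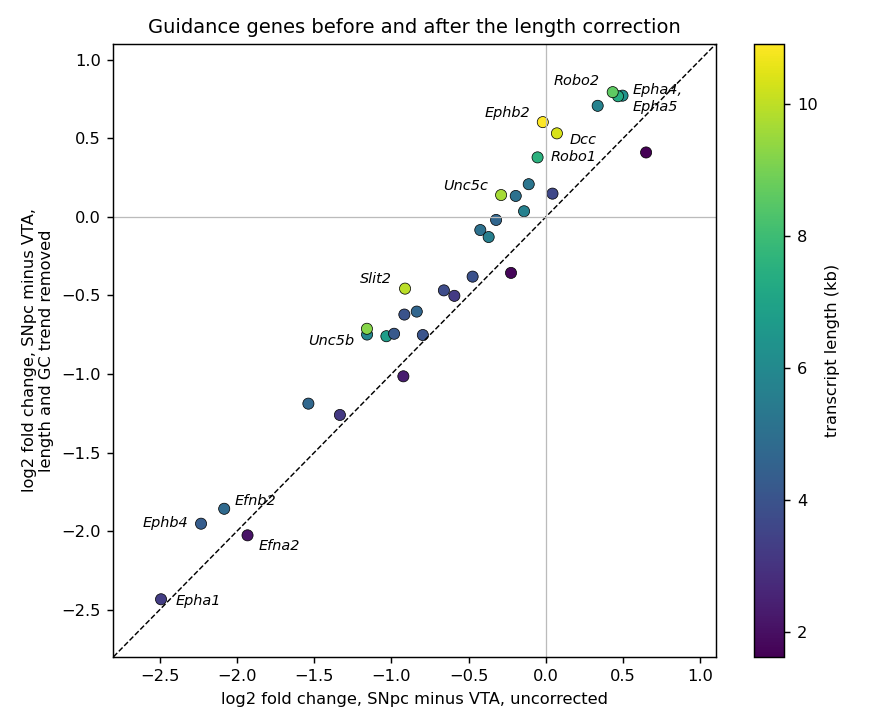
Log2 fold change (SNpc minus VTA) of the 35 tested guidance genes before (x axis) and after (y axis) removal of the length and GC trend, coloured by transcript length in kb; the dashed line marks equal values. Long transcripts such as Ephb2, Dcc and Slit2 lie above the line, and short ones such as Efna2 lie on or below it.

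Strand was not marked by the library kit and no source used here states the counting setting, so reads of overlapping genes cannot be told apart. Exons on the opposite strand overlap those of Efna3 (with Gm15998, 344 bases), Epha1 (with Zyx, 236 bases), Epha6 (with Gm9017, 107 bases), Ephb1 (with Gm26846, 152 bases) and Unc5a (with Hk3, 34 bases) among the called genes. Those of Efna4, Epha10, Ephb4, Ntn3, Ntn5 and Unc5c are overlapped likewise, and Ntn3 and Ntng2 share exonic bases with a gene on their own strand. Values of all these genes are uncertain to that extent.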

How the data were processed

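Whole-number counts of reads per gene were deposited by the authors in 12 columns, 6 per region, with no normalization. Reads were aligned with TopHat2 2.0.8 to mm10, per the submitters' processing notes; cDNA came from the NuGEN Ovation V2 kit and libraries from TruSeq, per the labels' protocols. No source used here names the counter, its annotation or its strand setting. The labels do not say whether libraries are from different animals; p-values therefore reflect only how these libraries vary, and that may be technical.

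Identical columns (SNpc 4 and 5, VTA 2 and 3, with 0 genes different) differed by less than the sampling noise and were counted as 1 sample each. Genes passing filterByExpr entered edgeR 4.0.16 under R 4.3.3 (TMM, robust quasi-likelihood F test, no covariate, Benjamini-Hochberg over 15685 genes, called under 0.05), after the same code had been tested on simulated data. CPM are TMM-scaled, the libraries hold 62356964 to 81393907 counts, and intervals cover the model's error only. Genes under about 1 CPM can spread widely between libraries of one region, as with Efna1 at 0 to 58 counts in SNpc. CPM per kb divides by the longest RefSeq-matched GENCODE transcript. The length and GC trend was a natural spline (4 degrees of freedom) fitted per library and removed as an offset. DESeq2 1.42.0 and the other alternatives are in the closing section.

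The members and all gene lists were chosen with earlier results of these data known. Every member is accounted for: those called without overlap or with a mean of at least 20 CPM are given in every library, and from each partner list the 2 genes with the smallest p in each direction are named. The labels state no pairing and same-numbered libraries gave no sign of it, so no replicate block is in the test. Of 23079 genes, 3036 had no count in any column.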

Additional observations from a re-analysis of the deposited data

Results flagged for a closer look

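In 5 of 90 groups of 5 libraries (the tested guidance genes and the named partner genes in each region), one library stood apart from the rest by more than 0.71 of the group's whole range; chance alone gives about 1 in 20 groups. Epha6 had 38.45 CPM in SNpc library 4, against 31.19 CPM in the next SNpc library, and that library also had the highest summed glial markers. Ephb4 had 1.431 CPM in SNpc library 1, against 0.344 CPM in the next. Robo1 had 130.8 CPM in VTA library 6, where the next VTA library had 92.05 CPM. Unc5b had 28.85 CPM in VTA library 2, against 23.44 CPM in the next VTA library. Myo10, the DCC-carrying myosin, had 49.16 CPM in the same VTA library 2, against 38.18 CPM in the next.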

How the results depend on the processing

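Of the 19 called guidance genes, 7 kept their direction and call under all 19 alternatives: Efna5, Efnb2, Efnb3, Epha5, Epha7, Unc5a and Unc5d; Ephb1 lost its call under 17 and Ntn1 under 12. Of the 16 not called, 10 were called under none and 6 (Dcc, Ephb2, Ephb3, Ephb4, Robo1 and Unc5c) under at least 1. The counts in SNpc and in VTA, 4 and 15, were 4 and 14 with DESeq2 size factors, 3 and 16 with library totals as the scale, 4 and 15 with no filter, 4 and 16 with DESeq2's Wald test and 3 and 17 with all 12 columns. With no filter, Ephb1 lost its call and a gene otherwise untested for low counts gained one in VTA. Same-numbered libraries had correlations of deviations from -0.072 to 0.044, which gave no sign of pairing but cannot exclude it. The number of 1 library per region is itself unsure, since a pair of columns held the same counts. With the replicate block the counts were 3 and 13. After removal of the length and GC trend they were 7 and 11 with the scale kept or refitted, and with the glial covariate 1 and 7. Over all 15685 genes tested, the counts moved as well. They were 2793 and 3203 in the main fit, 1814 and 2571 with the block and 1461 and 2096 with the covariate. With the trend removed they were 2333 and 2556 (scale kept) and 2636 and 2465 (refitted). Leaving out each library gave 3 to 4 in SNpc and 13 to 15 in VTA, beside 2284 to 3317 and 2790 to 3193 over all genes. The counts of partner genes below are to be read beside these. Of the effector and partner genes, 9 and 38 in the report, 16 and 24 were called with the length trend removed, 19 and 24 with the scale refitted too, and 5 and 29 with the glial covariate. Their counts ran from 7 to 15 in SNpc, the highest without SNpc library 4, and from 31 to 38 in VTA when each library was left out. The SNpc count over all genes tested was also highest without SNpc library 4, at 3317 of 15904. The cause of the changes was not tested. Log2 fold changes of 9 uncalled guidance genes changed sign. With the length trend removed (scale kept, then refitted) they were 0.035 and 0.059 for Epha3, 0.60 and 0.63 for Ephb2, 0.38 and 0.41 for Robo1, 0.13 and 0.16 for Slit1, 0.21 and 0.23 for Slit3, 0.14 and 0.17 for Unc5c, and 0.012 for Epha10 when refitted. With the replicate block Efna1 was at -1.50, Ephb2 at 0.11 and Ntn4 at -0.048. Ephb2 was at 0.0081 with DESeq2 size factors and 0.0081 with its Wald test; Ntn4 was at -0.015 with library totals, -0.054 with 12 columns and -0.37 with the glial covariate. Leaving out each library moved Ephb2 between -0.11 and 0.11, Ntn4 between -0.055 and 0.25, and Robo1 between -0.14 and 0.097. Genes under about 1 CPM, such as Efna1 and Ephb4 in SNpc, are limited by their spread between libraries (0 to 58 and 4 to 90 counts).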
